A study of Mus musculus with 8 samples.

Results

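Broad peaks of anti-IRF5 CUT&Tag, defined as peaks of 2000 bp or more, were taken from the 4 deposited lists of single libraries on chromosomes 1 to 19, X and Y. They were chosen by the deposited peak length alone. They numbered 1245 of 105945 peaks. Control 1 held 267 of 29226, control 2 held 747 of 37315, CpG 1 held 4 of 13553 and CpG 2 held 227 of 25851. These are 0.914%, 2.00%, 0.0295% and 0.878% of the lists. The cells were macrophages grown from mouse bone marrow, of wild-type genotype (wt in the labels). Controls had received PBS and treated cells CpG, with 2 anti-IRF5 libraries per condition. The labels give no age, dose or duration, and do not say whether libraries came from separate animals or cultures, so the spread between them may be technical. The 4 IgG libraries have no list of their own here. By the names of the lists, IgG of the same condition was the background of the authors' calls, so background and treatment cannot be told apart. Both control lists name control IgG 2, so their calls share a background and are not independent. The list of CpG 1 names CpG IgG 1 and that of CpG 2 names CpG a IgG 1, which may or may not be the same library.

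IRF5 is a transcription factor that is activated downstream of Toll-like receptors through the adaptor MyD88 and drives inflammatory cytokine genes in macrophages. CpG DNA, which carries unmethylated CpG motifs, is sensed by TLR9 in endosomes of these cells. In CUT&Tag an antibody tethers a transposase to chromatin, and closely spaced sites of cutting can be joined by the peak caller into 1 long peak. A long peak can therefore hold many contacts, and its length is not the size of a single binding site.

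Promoter sequence is shown for 4 genes whose annotated start lay inside a broad peak in at least 2 libraries and to which the results below return. Ccl3 and Cxcl2 encode chemokines that attract leukocytes, Klf6 a zinc-finger transcription factor and Junb a subunit of AP-1. Each sequence is the 250 bases before the RefSeq start in GRCm38.p6, read 5′ to 3′ on the gene's strand, with capitals for matches to any of the motifs spelled out below. The positions are chr11:83649379-83649628 (minus strand) for Ccl3, chr5:90903649-90903898 (plus strand) for Cxcl2, chr13:5861239-5861488 (plus strand) for Klf6 and chr8:84978749-84978998 (minus strand) for Junb.
Ccl3: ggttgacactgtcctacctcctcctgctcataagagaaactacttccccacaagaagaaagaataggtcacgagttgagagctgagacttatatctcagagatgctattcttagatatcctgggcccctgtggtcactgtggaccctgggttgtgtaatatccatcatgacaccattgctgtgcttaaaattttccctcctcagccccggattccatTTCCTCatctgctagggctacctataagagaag
Cxcl2: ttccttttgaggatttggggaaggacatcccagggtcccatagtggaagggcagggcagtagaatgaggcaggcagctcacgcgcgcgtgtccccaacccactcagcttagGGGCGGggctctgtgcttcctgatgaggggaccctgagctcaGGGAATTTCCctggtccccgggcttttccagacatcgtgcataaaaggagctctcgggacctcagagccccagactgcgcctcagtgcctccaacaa
Klf6: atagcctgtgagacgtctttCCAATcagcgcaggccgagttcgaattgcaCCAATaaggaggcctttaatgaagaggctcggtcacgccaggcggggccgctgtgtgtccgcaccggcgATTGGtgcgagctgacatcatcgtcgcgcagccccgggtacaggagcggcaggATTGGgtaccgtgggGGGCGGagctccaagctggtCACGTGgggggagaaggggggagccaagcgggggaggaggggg
Junb: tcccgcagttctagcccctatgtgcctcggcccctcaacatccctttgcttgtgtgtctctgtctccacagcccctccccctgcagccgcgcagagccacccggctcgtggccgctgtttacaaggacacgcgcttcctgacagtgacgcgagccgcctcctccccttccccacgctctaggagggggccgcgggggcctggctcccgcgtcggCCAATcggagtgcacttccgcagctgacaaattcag

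In these windows Ccl3 carried 1 PU.1 core (GAGGAA, here on the opposite strand) that began 33 bases before the start. Cxcl2 carried 1 NF-kB motif (GGGA, any base, TTTCC) beginning 97 bases before it and 1 GC box (GGGCGG) at 139 bases. Klf6 had 4 CCAAT boxes, at 230, 200, 131 and 78 bases, 1 GC box at 63 bases and 1 E-box (CACGTG) at 43 bases. Junb had 1 CCAAT box at 36 bases. Motifs were searched as exact letters on both strands. An exact match is a description of the letters and not a site of binding.

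At broadly covered starts the IRF motif stood at a share near that of all promoters. The IRF pair (GAAA, any 2 bases, GAAA) stood in 2.66% of 263 RefSeq promoters whose gene start lay inside a broad peak, in 2.98% of all 32851 promoters and in 2.76% of 5469 promoters covered by shorter peaks only. The PU.1 core stood in 30.0%, 23.3% and 22.5% in the same order. PU.1, the product of Spi1, is a lineage factor of macrophages. The E-box CACGTG stood in 9.13%, 6.02% and 9.34%, and the CCAAT box in 39.5%, 33.8% and 39.7%. For the E-box and the CCAAT box the broadly and narrowly covered promoters lay close together and above all promoters. The GC box GGGCGG stood in 49.8%, 32.7% and 58.1%, the AP-1 motif (TGA, any base, TCA) in 4.18%, 6.75% and 5.01%, and the NF-kB motif in 0.38%, 0.356% and 0.494%. The 263 promoters belong to 211 of 302 covered genes, those with a match by symbol, and matches of different motifs may overlap.

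The libraries differed in how far their peaks extended. In the order control 1, control 2, CpG 1, CpG 2, used for each set of 4 library values below, the median length of a broad peak was 2570, 2447, 2667 and 2454 bp. The limit of 2000 bp holds these medians close together, and that of CpG 1 rests on 4 peaks, so they do not compare typical lengths. Differences showed in the longest peaks. The longest peak measured 20805, 8761, 3561 and 9019 bp in the same order. Peaks of 5 kb or more numbered 27, 27, 0 and 9, and those of 10 kb or more 4, 0, 0 and 0. Broad peaks made up 6.76%, 10.7%, 0.328% and 5.49% of the base pairs under peaks.

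**Figure D1:**
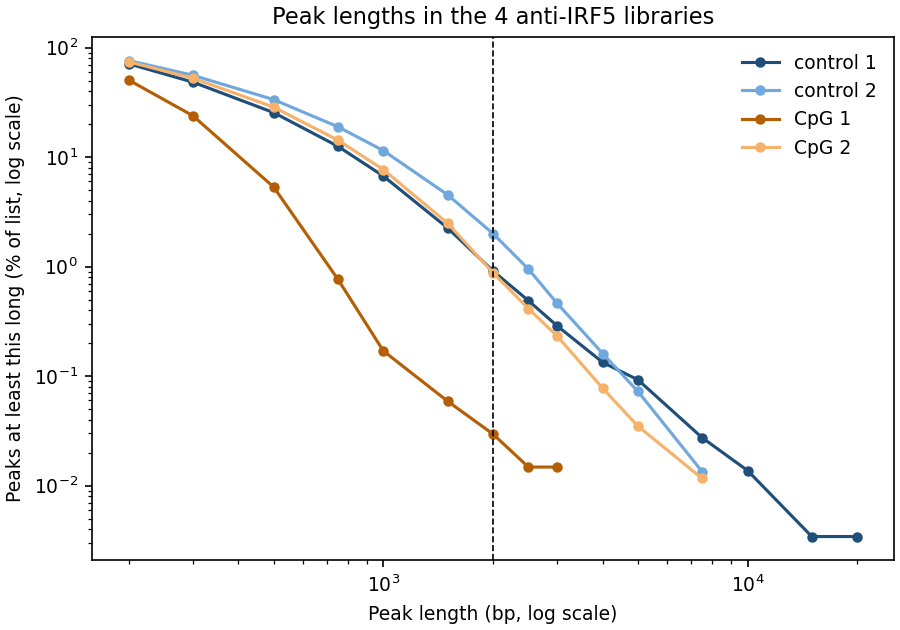
Share of each list (vertical axis, %, log scale) made of peaks at least as long as the length on the horizontal axis (bp, log scale), for the 4 libraries; the dashed line marks 2000 bp. The curve of CpG 1 lies below the others, at 0.0295% at 2000 bp against 0.878% to 2.00%.

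Broad peaks were fewer in the CpG libraries, but libraries of the same condition also differed widely. The control libraries averaged 507 ± 339 and the CpG libraries 115.5 ± 158 (SD, n = 2 each), a ratio of 0.228. A two-sided exact permutation test of the condition labels, with 6 possible assignments, gave p = 0.333 (0.333 after Benjamini-Hochberg adjustment over 3 tests), the smallest it can give. CpG 2, with 227, was close to control 1, with 267, and CpG 1 held 4. The ratio was 0.448 without CpG 1, 0.00789 without CpG 2 and 0.433 without control 2. The order of the libraries by broad peaks was also their order by all peaks, and the median length over all peaks was 291, 341, 202 and 317 bp. The part of list size in the difference was not tested. With lists cut to equal length by p-value the ratio was 0.228. That cut cannot decide, because it keeps the peaks with the smallest p-values, where broad peaks lie. Their median −log10 p was 52.0, 74.8, 73.4 and 81.4, against 10.4, 11.3, 9.26 and 11.4 for shorter peaks.

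Length and enrichment come from the same signal, so the ranks that follow are a description. Fold enrichment is the authors' ratio of pileup, the stacked fragments at the summit, to local background, and was ranked within each list. The median broad peak lay at percentiles 94.8, 95.7, 22.2 and 96.6. Of the broad peaks, 176, 512, 1 and 160 were in the top 10% of their list, and 10, 14, 2 and 4 lay below the 25th percentile. In control 1, control 2 and CpG 2 most broad peaks were thus also strong ones, with a small low-ranking group. This did not hold in CpG 1, where 1 of 4 was in the top 10% and 2 lay below the 25th percentile. Peaks just inside and just outside the length limit spanned overlapping ranks. The 4 nearest in control 1 measured 2003 to 2011 bp at percentiles 52.4 to 99.2, and the 4 just under it 1988 to 1996 bp at 42.6 to 99.8. In control 2 those inside measured 2000 to 2002 bp at percentiles 75.6 to 83.2 and those outside 1998 to 1999 bp at 80.5 to 98.0. In CpG 2 the values were 2001 to 2010 bp at 76.0 to 96.6 and 1986 to 1998 bp at 72.5 to 99.5. In CpG 1 the 4 members ran from 2023 to 3561 bp at percentiles 0.0738 to 99.6, and the 4 below from 1527 to 1932 bp at 6.48 to 99.4.

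The lowest rank by fold belonged to Rn18s in control 1 and to Gm21836 in control 2 and CpG 1. Gm21836, a predicted gene on chromosome 9, had pileups of 5027 in control 1, 4440 in control 2 and 3577 in CpG 1 with fold enrichments of 3.32, 2.88 and 1.82. The local background implied by these values was 1515, 1538 and 1968. Rn18s, which encodes 18S ribosomal RNA, had pileups of 734 in control 1 and 828 in CpG 1 at fold enrichments of 2.71 and 2.45. In these libraries both loci had deep background as well as deep signal. The other libraries differed: Rn18s had fold enrichments of 13.9 in control 2 (percentile 93.2) and 18.6 in CpG 2 (97.1), and Gm21836 one of 7.68 in CpG 2 (71.2). Ribosomal RNA genes exist in many near-identical copies that share reads. The part of shared reads in these lengths was not tested. They supply 2 of the 4 broad peaks of CpG 1. The others were at Fth1 and Cxcl2.

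By position, broad peaks were more often in the authors' Promoter class than shorter peaks of the same library. A peak counts in each class its annotation names. A longer peak can reach a promoter more easily, also when set against strong shorter peaks, so part of the difference may follow from length. With the summit within 2 kb of the nearest gene start in place of the class, the difference averaged 12.8 points over the 4 libraries. In control 1 the class held 30.0% of broad peaks (80 of 267, 95% Wilson interval 24.8 to 35.7) and 19.7% of shorter ones. In control 2 it held 25.8% (22.8 to 29.1) and 18.5%, and in CpG 2 29.1% (23.6 to 35.3) and 20.1%. CpG 1, with 2 of 4 broad peaks in the class against 15.8% of shorter ones, adds little. All 4 libraries thus pointed one way. The difference averaged 15.2 ± 12.7 percentage points (SD, n = 4), positive in 4 of 4 libraries (two-sided exact sign-flip permutation test, p = 0.125, the smallest that 4 libraries allow; 0.1875 after Benjamini-Hochberg adjustment). Without CpG 1 it was 8.88 points. It did not fall when broad peaks were set against shorter peaks in the top 10% by fold (18.6 points, a comparison chosen after the values were seen). In that comparison the libraries differed by 10.4, 11.2, 37.2 and 15.6 points, and the mean without CpG 1 was 12.4 points. The intervals cover counting error only.

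Introns held fewer broad than shorter peaks, at 40.8% against 51.2% in control 1, 45.5% against 50.9% in control 2, 25% against 45.6% in CpG 1 and 38.3% against 49.2% in CpG 2. Intergenic shares lay close together in the libraries with many broad peaks, at 26.6% against 26.8%, 29.9% against 28.3% and 32.2% against 28.6% in control 1, control 2 and CpG 2.

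**Figure D2:**
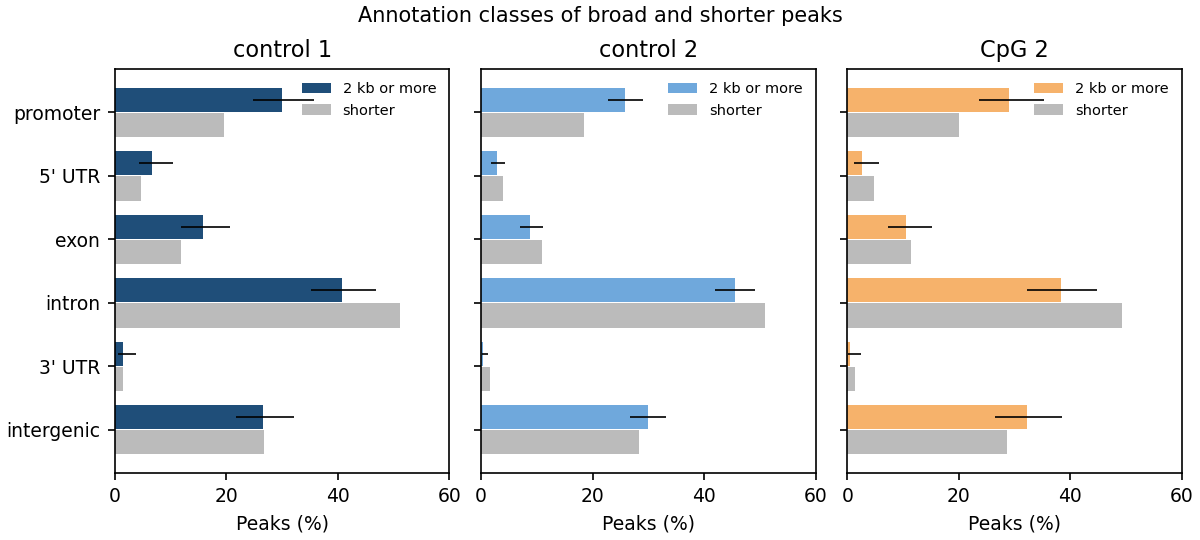
Share of peaks (horizontal axis, %) in each annotation class for broad peaks (coloured bars, 95% Wilson intervals) and shorter peaks (grey) in the 3 libraries with more than 4 broad peaks. Coloured bars exceed grey for promoters (30.0% against 19.7% in control 1) and fall short for introns.

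Around gene starts, broad peaks extended to both sides. The nearest gene's start lay inside 122 broad peaks of control 1 (45.7%), 253 of control 2 (33.9%), 1 of CpG 1 and 86 of CpG 2 (37.9%). A longer peak covers a start more easily, so no comparison is made here. In such peaks the median reach was 1137 bp upstream and 1524.5 bp downstream of the start in control 1. It was 1233 and 1347 bp in control 2, and 1128.5 and 1431.5 bp in CpG 2. The summit, a single base, was a median of 2678, 4923, 2266 and 3201 bp from the nearest start, against 5912, 6581, 10239 and 6550 bp for shorter peaks. Broad peaks thus centred nearer to starts in each library. A whole gene lay inside 24, 49, 0 and 25 broad peaks. Counting every gene that the Promoter class names, 29 genes had a broad peak there in 3 libraries and 1, Rn18s, in all 4. Among the 29, picked here after their values were seen, were Irf2bp2, a transcriptional corepressor gene, at 5853, 3030 and 3076 bp in control 1, control 2 and CpG 2, the kinase gene Pim1 at 3568, 2920 and 3216 bp, Slfn2 and several core histone genes.

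Broad peaks recurred across libraries far more often than shorter ones. The summit is a single base, but peaks of the other libraries at these places can be long too and hold it more easily. Part of the excess may therefore follow from length, which was not tested. Of the broad summits of control 1, 47.2% lay inside a peak of all 3 other libraries, against 12.6% of shorter ones. The values were 53.1% and 8.91% in control 2, 59.5% and 14.3% in CpG 2, and 4 of 4 against 37.1% in CpG 1. The difference averaged 46.7 ± 11.8 points (SD, n = 4), positive in 4 of 4 libraries (two-sided exact sign-flip permutation test, p = 0.125, adjusted p = 0.1875). Each value is defined by overlap with the other lists, so the 4 differences are not independent, which the test ignores. Shorter peaks in the top 10% by fold recurred at 37.3%, 38.1%, 60.9% and 55.9%. Against these the differences were 9.88, 15, 39.1 and 3.61 points. Their mean was 16.9 points, and 9.51 points without CpG 1 with its 4 broad peaks, so the gap to strong peaks of shorter length was smaller. In CpG 2 the 95% Wilson intervals of broad peaks (53.0 to 65.6%) and of these strong shorter peaks (53.9 to 57.8%) overlapped. The partner that was most often missing was CpG 1. It held 49.1%, 54.1% and 61.2% of the broad summits of control 1, control 2 and CpG 2, while the other pairs shared 88.4% to 98.3%.

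**Figure D3:**
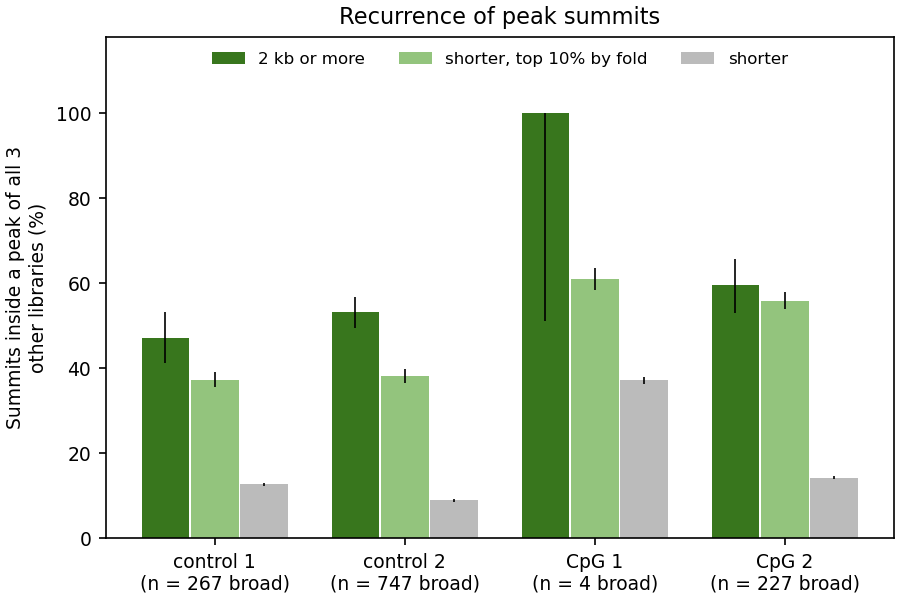
Share of summits (vertical axis, %) inside a peak of all 3 other libraries, for broad peaks, shorter peaks in the top 10% of their list by fold, and all shorter peaks; bars carry 95% Wilson intervals. Broad peaks have the highest share in each library, with 47.2% in control 1 and 4 of 4 in CpG 1, but in CpG 2 their interval overlaps that of the strong shorter peaks.

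Peaks of the 4 libraries that overlapped by 1 bp or more were merged into 55621 regions, of which 852 held a broad peak. A peak of any length was present in all 4 libraries at 617 of the 852 (72.4%), in 3 at 222, in 2 at 9 and in 1 at 4, against 10.1% of all regions in all 4. Longer regions overlap more easily. Length itself recurred less, as 576 regions were broad in 1 library, 177 in 2, 96 in 3 and 3 in all 4. Presence was therefore common, and passing 2000 bp was mostly a feature of single libraries. Control 2 alone was broad at 467 regions and control 1 alone at 87. The combination of control 1, control 2 and CpG 2 accounted for 95 regions, control 2 with CpG 2 for 99, and both controls without CpG for 76. CpG 2 alone accounted for 22.

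The count in all 4 libraries was set by CpG 1, since without it 98 regions were broad in every library. At the 95 regions broad in the 3 others, CpG 1 had a peak in 88, with longest lengths from 145 to 1142 bp and a median of 435.5 bp. The median longest peaks there were 2982 bp in control 1, 3366 bp in control 2 and 2640 bp in CpG 2. CpG 1 thus marked most of these places with short peaks.

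Regions broad in all 4 libraries had Fth1, Rn18s and Gm21836 as nearest genes. Fth1 encodes the heavy chain of ferritin, the iron store of the cell. At Fth1 (chromosome 19, region 9959043 to 9966551) the longest peaks were 7427, 3675, 2290 and 4127 bp. The highest fold enrichments in the region were at percentiles 99.4, 92.7, 59.1 and 93.7. The longest peaks themselves stood at 99.4, 33.3, 43.5 and 93.7, so in control 2 and CpG 1 a shorter piece held the highest value. The region begins inside Fth1 and runs past its end into Best1. Rn18s measured 3215, 3775, 3561 and 3784 bp and Gm21836 3056, 2172, 3044 and 3519 bp.

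The 5 longest regions were ranked by the mean of their longest peaks in the 4 libraries. They were a noncoding locus, regions at the immediate early genes Klf6 and Zfp36, a region at Dusp1 and a histone cluster. The longest peak of all lay on chromosome 19 (5880001 to 5900805, control 1, 20805 bp) at an exon of ENSMUSG00000092274, a gene that is unnamed in the files. The region measured 8679 bp at its longest in control 2, 864 bp in CpG 1 and 7593 bp in CpG 2, in 4, 9 and 10 pieces that covered 17118, 3351 and 15178 bp. Control 1 thus carried 1 peak where the others had a broken row over much of the same stretch.

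Klf6 (chromosome 13, 5911480 to 5920393) lay whole inside a peak of 12477 bp in control 1. Control 2 had a peak of 8761 bp there, CpG 1 one of 571 bp and CpG 2 one of 3762 bp. The pieces summed to 12477, 12209, 3026 and 11013 bp, so 3 libraries covered nearly the same stretch with different breaks. The region of Gm44710, Plekhg2 and Zfp36 on chromosome 7 measured 11680, 7960, 615 and 5823 bp. Zfp36 encodes tristetraprolin, which destabilises cytokine mRNAs. The region of Gm34455 on chromosome 17 measured 7996, 8676, 314 and 8389 bp, and its peaks reached an intron of Dusp1, a MAP kinase phosphatase gene. In each of these regions the longest peak of CpG 1 was the shortest of the 4.

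Histone genes were nearest to a higher share of broad than of shorter peaks, a grouping made after the values were seen. The cluster around H2bc7 on chromosome 13 measured 7522, 6363, 392 and 3998 bp and held H2ac7, H2ac8, H2bc8 and H3c4. Histone genes were nearest to 11, 16, 0 and 7 broad peaks, or 4.12%, 2.14%, 0 and 3.08%, against 0.283%, 0.2%, 0.244% and 0.269% of shorter ones. Near-identical histone copies can share reads. Names of small RNA families such as U6 and Rny3 were nearest to 4.12%, 3.75%, 1 of 4 and 7.05% of broad peaks, against 1.99%, 2.08%, 2.48% and 2.24%. Chromosome 11 held 18.0%, 11.6%, 0 and 17.2% of broad peaks and 9.0%, 8.42%, 6.30% and 8.19% of shorter ones. Within 20 kb of another broad peak of the same library lay 36.0%, 28.4%, 0 and 22.0% of them.

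Of 20336 named genes nearest to any peak, 722 (3.55%) were nearest to a broad peak in at least 1 library, and 84 (0.413%) in 3 or more. They had a median of 14 peaks over the 4 libraries, against 3 for the other genes, so a gene with many peaks has more chances to be counted. The gene lists below were chosen with earlier results of these data known, and their counts are read against the 3.55%. Lengths given for a gene are those of its longest peak in each library, among peaks to which it is the nearest gene.

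Cytokine and chemokine genes had 10 of 28 members with a broad peak (35.7%), with a median of 10.5 peaks per gene. Ccl3 (chromosome 11, 83538669 to 83540181) measured 4826, 3828, 672 and 4328 bp, and its peaks stood at percentiles 99.9, 99.6, 97.5 and 99.5 by fold. In control 1 the peak ran from position -638 to position 4187 relative to the start, past the end of the gene. The PU.1 core printed above lies within that reach if the starts coincide. Ccl4, the neighbouring gene of a related chemokine, measured 5231, 6060, 1142 and 5425 bp. At both genes CpG 2 was as long as the controls and CpG 1 was short.

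Cxcl2 (chromosome 5, 91051729 to 91053797), which encodes a neutrophil attractant, was the only gene with a broad peak in both CpG libraries outside the 3 regions broad in all 4. Its longest peaks were 2201 bp in control 1, 1228 bp in control 2, 2023 bp in CpG 1 and 6275 bp in CpG 2. The peak of CpG 2 covered the gene from position -1249 to position 5025 relative to its start. Broad peaks also lay upstream, from -7092 to -4767 in control 2 and from -6914 to -4765 in CpG 2, where the nearest name was 5S_rRNA and not Cxcl2. CpG 2 was the longest and control 2 the shortest, and the CpG and control values overlapped. Peaks of the merged region covered 4550, 2932, 3958 and 6443 bp.

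Further chemokine genes on chromosome 11 had broad peaks in 1 to 3 libraries. Ccl7, which encodes a monocyte attractant, measured 4159, 4731, 510 and 1785 bp and was broad in both controls and neither CpG library. Ccl12 measured 1323, 3762, 911 and 3147 bp. A broad peak in the Promoter class of Ccl2, a main monocyte attractant, measured 5490, 6175 and 4464 bp in control 1, control 2 and CpG 2, and had Gm17268 as a nearest gene. Tnf, the gene of tumour necrosis factor, measured 2648, 2979, 454 and 1456 bp, with both controls longer than both CpG libraries. By fold these peaks stood at percentiles 95.4, 22.0, 30.0 and 94.3, so enrichment did not follow length. Pf4, Ccl6, Ccl9 and Osm were broad in 1 or 2 libraries.

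Immediate early genes, which are transcribed within minutes of a stimulus, had 8 of 23 members with a broad peak (34.8%). Junb (chromosome 8, 85701112 to 85705347) measured 6153, 3366, 522 and 4539 bp. The peak of control 1 ran from position -2743 to position 3409 relative to its start and that of CpG 2 from -4325 to 213. Klf2, a zinc-finger factor that restrains inflammatory genes, measured 4009, 2829, 506 and 2399 bp. Of these longest peaks the 3 broad ones lay downstream of its start. Control 1 had a further broad peak of 2570 bp in the Promoter class of Klf2. By nearest gene, Fos, Jun, Ier2, Ier5 and Zfp36 were broad in 1 or 2 libraries. The peak of 11680 bp in the Zfp36 region of control 1 had another nearest gene and is not counted for Zfp36. Dusp1 is not counted either, as the broad region at its intron had Gm34455 as nearest gene. On this rule the libraries had 5, 8, 0 and 5 members of this group with a broad peak.

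**Figure D4:**
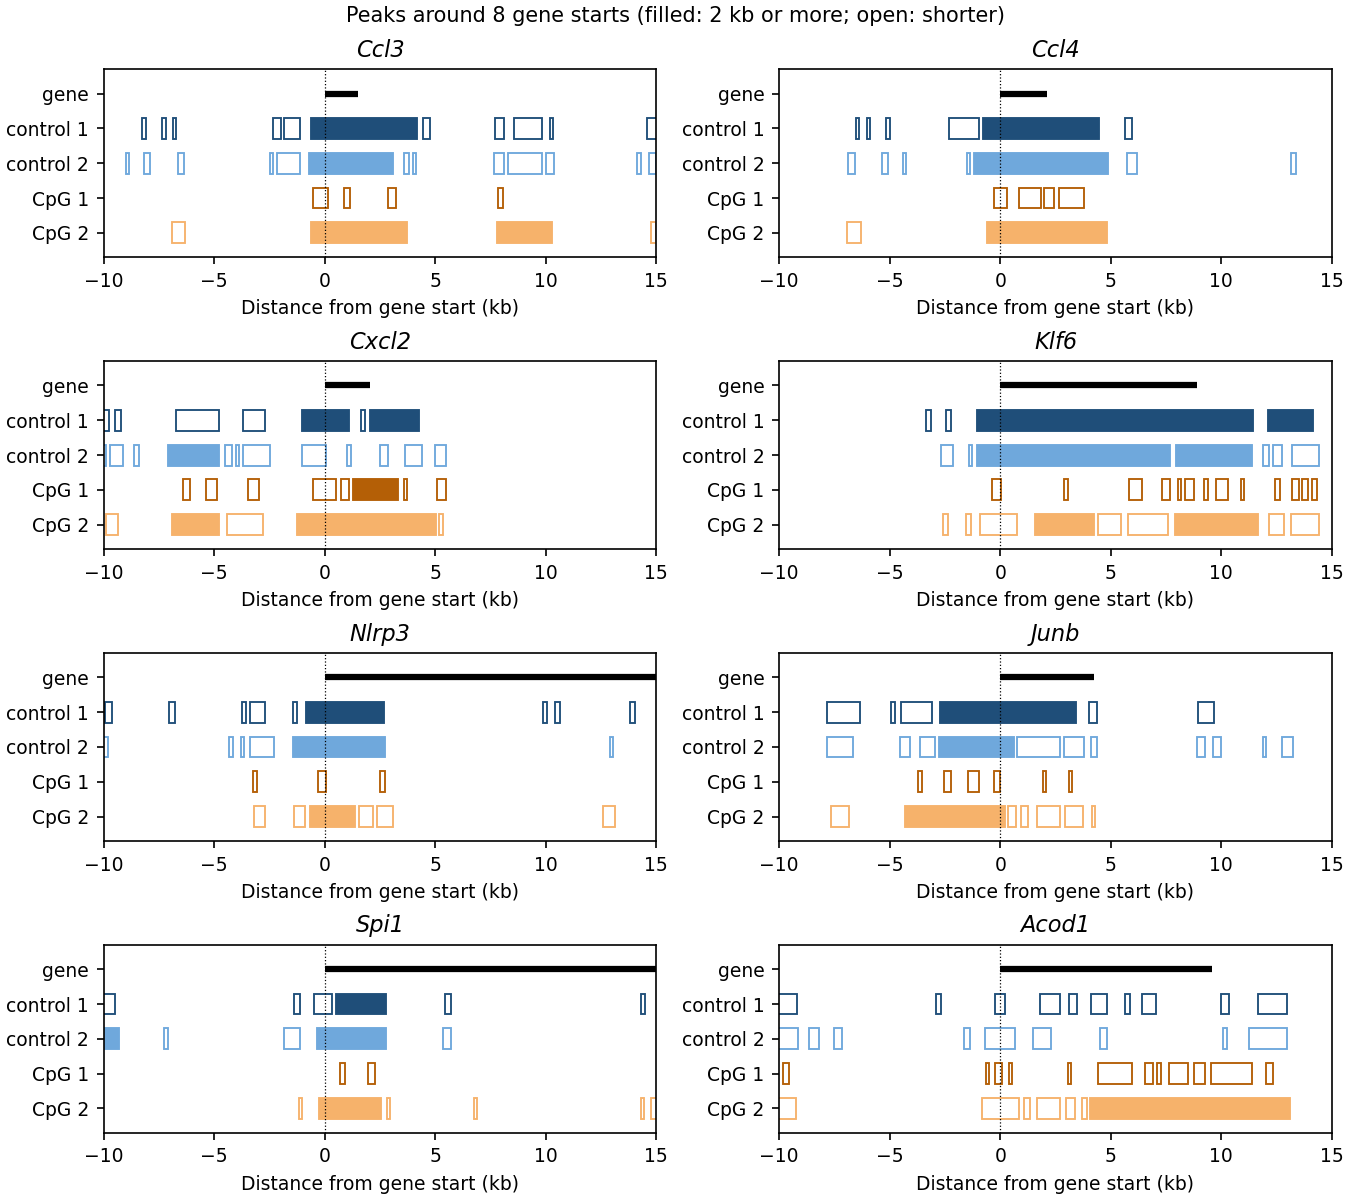
Peaks of the 4 libraries around 8 gene starts, with distance from the start (kb, along the gene's strand) on the horizontal axis; filled boxes are broad, open boxes shorter, and the black bar is the gene, cut at 15 kb. Filled boxes span Ccl3 and Ccl4 in control 1, control 2 and CpG 2, whereas CpG 1 has short boxes, and at Acod1 the filled box within the plotted range is that of CpG 2.

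Macrophage identity genes had 8 of 29 members with a broad peak (27.6%). Spi1, the gene of the lineage factor PU.1, measured 2278, 3093, 305 and 2781 bp, with the broad peaks at or just downstream of its start. Csf1r, which encodes the receptor for the growth factor CSF1, measured 2449, 4354, 291 and 2224 bp, and its broad peaks lay in introns. The cathepsin gene Ctsb measured 4927, 5386, 768 and 2208 bp within the gene, and Ctsd 2144, 3669, 605 and 2551 bp upstream of its start. All 4 genes were broad in control 1, control 2 and CpG 2. Sirpa, Cd68, C1qc and Fcgr1 were broad in 1 or 2 libraries. No marker gene of dendritic cells (of 5 with any peak), granulocytes including neutrophils (5), lymphocytes of the B lineage (3) or of the T and NK lineages (5), erythroid cells (2), or stroma and endothelium (3) was nearest to a broad peak. Beside the 3.55% of all named genes, 0 is not unusual in sets this small, so it does not set the lineages apart. Their median peaks per gene were 6, 2, 2, 4, 2 and 12 in this order, against 16 for macrophage identity genes.

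Genes of NF-kB and its targets had 5 of 22 members with a broad peak (22.7%). Nlrp3, the sensor of an inflammasome, measured 3523, 4158, 346 and 2063 bp, and the broad peaks spanned its start. Nfkbia, Nfkbiz, Sod2 and Ier3 were broad in 1 or 2 libraries. Of TLR9 and MyD88 signalling genes 3 of 22 (13.6%) were, namely Tlr13, Map3k8 and Hsp90b1. Tlr9 itself reached 803, 1506, 163 and 1277 bp. Irf5 reached 906, 1303, 158 and 748 bp, with percentiles by fold of 42.4, 57.3, 16.4 and 3.6. Neither gene had a broad peak.

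Interferon-stimulated genes, targets of other IRF family members as well, had 0 of 24 members with a broad peak, and the IRF family 0 of 8. They had medians of 4 and 5 peaks per gene. Genes of unrelated tissues had 0 of 7. Beside the 3.55% of all named genes, 0 is not unusual in sets of these sizes. Ribosomal protein genes had 2 of 23 (8.70%), Rpl32 and Rps9, each in 1 library. Housekeeping genes had 2 of 18 (11.1%). Among them Actb, the gene of beta-actin, measured 5460, 2385, 388 and 3280 bp. Broad peaks were therefore not limited to immune genes.

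**Figure D5:**
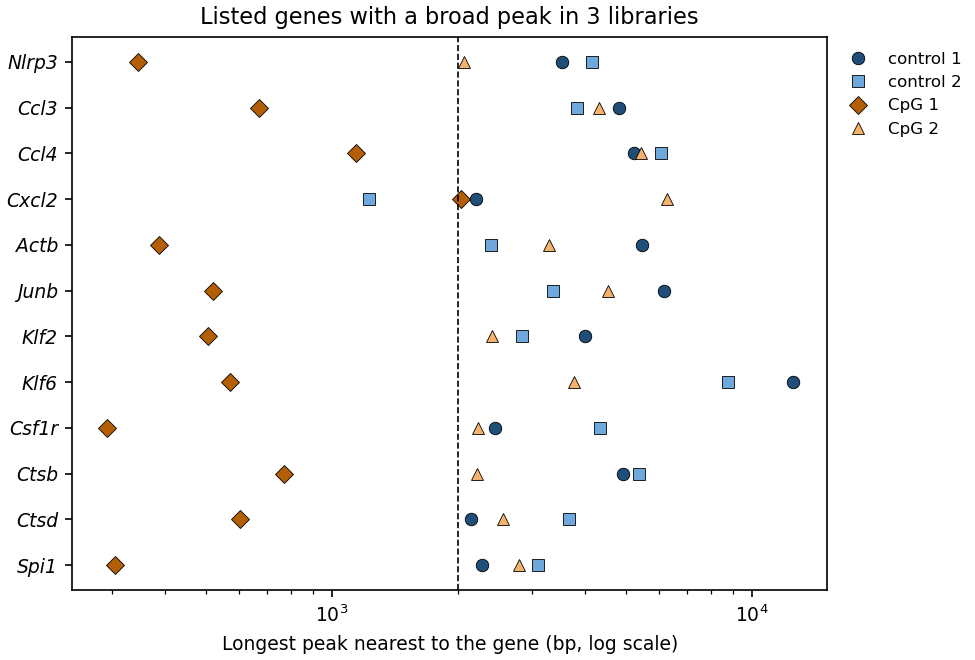
Longest peak (horizontal axis, bp, log scale) in each library for 12 listed genes that were broad in 3 libraries; the dashed line marks 2000 bp. CpG 1 lies left of the line at every plotted gene but Cxcl2, where it stands at 2023 bp and control 2 at 1228 bp.

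A broad peak in both controls, but in neither CpG library, marked 76 regions, and the opposite pattern 0. Over peaks of any length the same patterns held for 4841 (8.70%) and 638 (1.15%) of the merged regions. CpG 1 held only 4 broad peaks, so the opposite pattern had little room at this length and the contrast of 76 with 0 was bounded beforehand. None of the 76 lost its peak in both CpG libraries. CpG 2 had a peak at all 76, with a median longest length of 1443 bp and 1000 bp or more at 60, and CpG 1 at 53. The regions thus differed in length around the limit more than in presence. Without CpG 2 the count was 171, without control 1 it was 546 and without control 2 it was 166. Without CpG 1 it stayed at 76, and the opposite pattern rose from 0 to 22.

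Gm12014 led these regions by the shorter control peak, with 9687, 4689, 441 and 1673 bp on chromosome 11. CpG 2 had 8 pieces there that covered 5550 bp, against 9687 and 8288 bp in the controls. Cltc, the clathrin heavy chain gene, measured 3397, 3211, 303 and 1721 bp in an intron. Rhob, a small GTPase gene, measured 2936, 2974, 450 and 1443 bp over its start, and another region at Rhob was broad in control 1, control 2 and CpG 2. Gm10382, Gm47861, Rny3 and Cln8, a gene of an endoplasmic reticulum protein, completed the 8. Their longest peaks in CpG 2 ran from 1742 to 1959 bp, just under the limit.

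Of the 22 regions broad in CpG 2 alone, 15 had peaks in all 4 libraries. The genes that follow were chosen after their values were seen. At Acod1, which encodes the enzyme that makes itaconate and is induced by Toll-like receptor ligands, the longest peaks of the region (chromosome 14, 103288479 to 103297497) were 1313, 1725, 1846 and 9019 bp. The pieces covered 3228 bp in control 1, 2227 bp in control 2, 5619 bp in CpG 1 and 9019 bp in CpG 2. Both CpG libraries thus covered more of this stretch than both controls. This was the longest peak of CpG 2, and it began 4067 bp inside the gene. At Nfkbia, which encodes the NF-kB inhibitor I-kappa-B alpha, the region measured 1178, 1235, 235 and 3927 bp, with CpG 1 the shortest.

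Marco, which encodes a scavenger receptor of macrophages, was the only one of the 22 without a peak in either control library. Its region on chromosome 1 (120399514 to 120401724, beyond the end of the gene) held peaks of 1220 bp in CpG 1 and 2211 bp in CpG 2, at percentiles 78.3 and 84.4. Marco had control peaks elsewhere, the longest of 1305 bp in control 1 and 1743 bp in control 2, far upstream of its start. Tgm2, M6pr and Saal1 had control peaks under 1000 bp in their regions. Saal1 measured 238, 267, 267 and 2573 bp, so CpG 1 was as short as the controls there.

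The authors' lists for whole conditions, which pool or combine libraries in a way not stated in the sources used here, held 503 broad peaks of 28465 for control and 66 of 15249 for CpG. Of the 66, 66 overlapped a broad peak of CpG 2 and 61 one of control 2. Of the 503, 474 overlapped a broad peak of a single library. The condition lists thus mark mostly the same places as the single lists.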

How the data were processed

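Peaks were called by the authors with MACS2 2.1.0 after fastp 0.20.0 and BWA 0.7.12 and annotated with ChIPseeker, per the submitters' processing notes (build: not given in the sources used here). The authors deposited for each peak a pileup signal at its summit, a fold enrichment (the ratio to local background), a −log10 p-value and a −log10 q-value (2 damaged headers, read from column order and values), and its length, position, nearest gene and class, per the file headers. Depth is unknown, as the lists hold no read totals. No column was left unmapped.

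Python 3.11.15 with pandas 2.3.3, numpy 2.4.6 and scipy 1.17.1 was used. Lines continuing an overlong cell were skipped, and other contigs were left out. Percentiles rank fold within a list. Counts over libraries were compared by exact permutation and sign-flip tests. Merging of peaks, the sets of libraries with a broad peak and the overlap search were checked on simulated data. No model was fitted to heights. Shares carry 95% Wilson intervals. Positions are those of the files; RefSeq promoters of GRCm38.p6 were matched by symbol only, since only 3.10% of 16256 genes with a match had their start within 1 kb there.

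Members and lists were chosen with earlier results of these data known. Named were regions broad in all 4 libraries, the 8 control-only regions with the longest shorter peak, the longest peaks, list members broad in 3 or more libraries, Irf5 and Tlr9; other names were chosen after their values were seen. Alternatives changed the length limit, list length, chromosomes, overlap, class rule and reference peaks, and left out each library. A result that the rule would name is not reported here.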

Additional observations from a re-analysis of the deposited data

How the results depend on the processing

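The replicate numbers pair no libraries by the labels. Over 55621 regions the deviations of same-numbered libraries correlated at 0.0529, and with the replicate block (the ratio within each number) the CpG over control ratio of broad peaks was 0.0675. That ratio ran from 0.00789 to 0.448 over leaving out each library, the promoter difference from 8.88 to 17.8 points and the recurrence difference from 45.5 to 57.5 points. With limits of 1500 and 3000 bp, regions broad in all 4 libraries numbered 5 and 1, and control-only regions 182 and 16. Leaving out each library gave 3 to 98 regions broad in all remaining libraries, 76 to 546 control-only and 0 to 22 CpG-only regions. Leaving out a library drops a requirement, so such counts can rise by construction. Of the 59 alternative values, 49 stayed on the same side of their threshold or within 1.5 times. The 10 that moved were all counts of regions, which have no direction to change. The ratio and the differences in promoter share and recurrence kept their direction in each alternative. The p-values of 4 libraries cannot pass 0.05, so they say nothing about stability. Peak length depends on how the caller joins signal, and depth is unknown.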
